A study of Mus musculus with 8 samples.

Results

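The genes of cholesterol and fatty acid synthesis, their SREBP regulators and the LXR receptors with 3 LXR target genes were followed in PyMt mammary tumors. The set holds 34 genes chosen by symbol, out of 55414 gene identifiers in the table, and it was compared between calcipotriol-treated and EtOH-treated tumors. Bulk RNA-Seq measured the RNA of tumors grown in the mammary fat pad of WT C57BL/6 female mice from the PyMt cell line, which came from a tumor of an MMTV-PyMt transgenic mouse, in which a viral promoter active in mammary epithelium drives the polyoma middle T oncogene. Calcipotriol, a vitamin D analog, was applied to the skin over the tumor at 20 nmol in EtOH every 2 days from day 2 after implantation, EtOH alone was the control, and tumors were taken 24 hours after the last application. There were 4 tumors in each group, numbered 1 to 4 with EtOH and 1, 5, 6 and 7 with calcipotriol, all from this 1 cell line.

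Cells build cholesterol from acetyl-CoA through mevalonate and squalene, and they build fatty acids from the same precursor. The SREBP transcription factors switch on the genes of both routes. SCAP carries SREBP precursors out of the endoplasmic reticulum when sterols are low, and the INSIG proteins hold SCAP back when sterols are high. The LXR receptors respond to oxidized sterols instead and turn on cholesterol export through ABCA1 and ABCG1 and, through MYLIP, the breakdown of the LDL receptor. High sterol is therefore known to lower SREBP targets and to raise LXR targets. LXR also activates Srebf1, which links the sterol and fatty acid arms.

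The tumors differed within the EtOH group. EtOH tumors 1 and 2 were both below EtOH tumors 3 and 4 in 29.3% of the 14458 genes tested and both above them in 29% of them. The labels give no batch or date that separates these tumors. Within each group no library was a copy of another, as every pair differed by more than counting noise. Pairs of an EtOH and a calcipotriol library were not compared in this way. The mean chi-square per gene measures how far a pair of tumors differs. It was 43.6 for EtOH tumors 1 and 2, 20.7 for EtOH tumors 3 and 4 and 85.2 to 111 for pairs across them. Among the calcipotriol tumors it was 44.2 to 135. Levels are given in CPM, a gene's share of its library scaled so that libraries of different depth compare. Library totals were 19685419 to 25084713 counts. The labels call the cells epithelial, and the summed level of 8 epithelial markers was 1012.5 to 1322.2 CPM with EtOH and 600.9 to 901.2 CPM with calcipotriol, but nearly all of it was Krt8 and Krt18. Of the 7 markers tested, 5 had positive log2 fold changes and 2 were called, Krt18 lower (-0.93, edgeR adjusted p = 0.0162) and Cldn3 higher (3.93, edgeR adjusted p = 0.00654). Epcam, Krt19 and Krt7 were at 0 counts in EtOH tumors 1 and 2. In bulk tissue, fewer cells of a type and less RNA per cell cannot be told apart.

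The RefSeq promoter table (GRCm38.p6) had entries for 27 of the 34 genes, with 36 promoters. Scd1, Scd2, Fdft1, Sqle, Abcg1, Fdps and Stard4 had no entry. In the 250 bases before each start, 4 patterns were searched on both strands. A sterol regulatory element written TCACNCCAC was in 1.05% of all promoters and, among the members, in Hmgcs1. The palindrome TCACGTGA, a site that SREBP also binds, was in 0.785% of all promoters and in no member's. The CCAAT box, bound by the SREBP partner NF-Y, was in 33.8% of all promoters and in 83.3% of the 18 promoters of sterol SREBP targets, covering all 15 such genes that had an entry. Hmgcs1 and Sc5d are shown as sterol genes with these boxes, and Acly as the member that passed the test. Capitals mark the matches, where ATTGG is a CCAAT box on the other strand, and Acly matched none of the patterns.
Hmgcs1, chr13:119690101-119690350, plus strand: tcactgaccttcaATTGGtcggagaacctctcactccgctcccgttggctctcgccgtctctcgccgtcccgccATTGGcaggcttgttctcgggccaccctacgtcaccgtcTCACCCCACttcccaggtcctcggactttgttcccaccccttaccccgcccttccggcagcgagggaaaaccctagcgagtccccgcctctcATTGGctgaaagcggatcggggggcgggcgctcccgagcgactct
Sc5d, chr9:42264301-42264550, minus strand: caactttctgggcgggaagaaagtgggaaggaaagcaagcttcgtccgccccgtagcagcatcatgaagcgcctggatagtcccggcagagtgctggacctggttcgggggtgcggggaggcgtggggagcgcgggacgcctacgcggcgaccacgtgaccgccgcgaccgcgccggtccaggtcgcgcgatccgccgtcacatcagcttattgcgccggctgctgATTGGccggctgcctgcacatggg
Acly, chr11:100528001-100528250, minus strand: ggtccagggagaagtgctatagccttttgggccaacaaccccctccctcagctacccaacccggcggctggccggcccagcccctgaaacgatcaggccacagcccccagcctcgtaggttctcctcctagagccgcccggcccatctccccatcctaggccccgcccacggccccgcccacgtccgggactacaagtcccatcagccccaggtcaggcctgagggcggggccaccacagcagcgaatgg

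GGTNA followed after 5 bases by GGTCA, the core of a direct repeat with a spacer of 4, stood for the LXR site and was in 0.177% of all promoters. Among the members it was in Abca1, Fasn and 1 of 3 promoters of Srebf1. The letters were chosen so as to admit the known sites of Abca1 and Srebf1, so those matches were built into the search. Abca1 and Fasn carried the same letters, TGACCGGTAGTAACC, on the gene's strand. In these promoters the capitals mark the LXR pattern alone, and no printed promoter holds an annotated exon in GENCODE M21.
Abca1, chr4:53159896-53160145, minus strand: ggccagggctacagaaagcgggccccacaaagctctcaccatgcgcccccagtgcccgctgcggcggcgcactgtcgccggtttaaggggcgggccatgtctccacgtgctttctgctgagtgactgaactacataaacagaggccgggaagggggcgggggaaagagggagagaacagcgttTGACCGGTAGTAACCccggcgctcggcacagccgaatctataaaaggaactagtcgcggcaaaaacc
Srebf1, chr11:60210472-60210721, minus strand: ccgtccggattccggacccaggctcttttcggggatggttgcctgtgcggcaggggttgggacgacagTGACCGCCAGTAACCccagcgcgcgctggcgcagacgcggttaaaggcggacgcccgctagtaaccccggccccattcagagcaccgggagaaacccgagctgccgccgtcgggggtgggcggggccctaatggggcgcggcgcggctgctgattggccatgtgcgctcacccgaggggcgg
Fasn, chr11:120824548-120824797, minus strand: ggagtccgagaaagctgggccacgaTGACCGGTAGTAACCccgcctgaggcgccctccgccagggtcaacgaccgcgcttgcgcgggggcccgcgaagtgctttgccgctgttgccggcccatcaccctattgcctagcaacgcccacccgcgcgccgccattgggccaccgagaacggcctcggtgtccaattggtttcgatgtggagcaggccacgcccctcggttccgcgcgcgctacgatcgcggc
A match describes these letters only, since no binding was measured in the tumors.

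Acly was the only gene of the 34 that passed edgeR's test between the treatments, and it fell with calcipotriol. All 34 genes had enough counts to be tested. The 1 gene called is 2.94% of the set, beside 2.74% of all genes tested (adjusted p under 0.05, either direction), so the share of the set was near that of the whole table. By direction, 0 were higher, beside 1.37% of all genes, and 1 was lower, beside 1.37%. At an unadjusted p under 0.05 there were 7 of 34, beside 18.4% of all genes. With the added minimum of 1 in absolute log2 fold change, 0 of 34 were called, beside 2.02% of all genes. The groups did not overlap for Srebf1, Acly and Scd1, which is 3 of 34, beside 12.5% of all genes. Scd1 was higher (6.32% of all genes were higher without overlap) and Srebf1 and Acly were lower (6.16%). Log2 fold changes of the set had a median of -0.18, with 23 negative and 11 positive values, and that of all genes was 0.02.

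**Figure D1:**
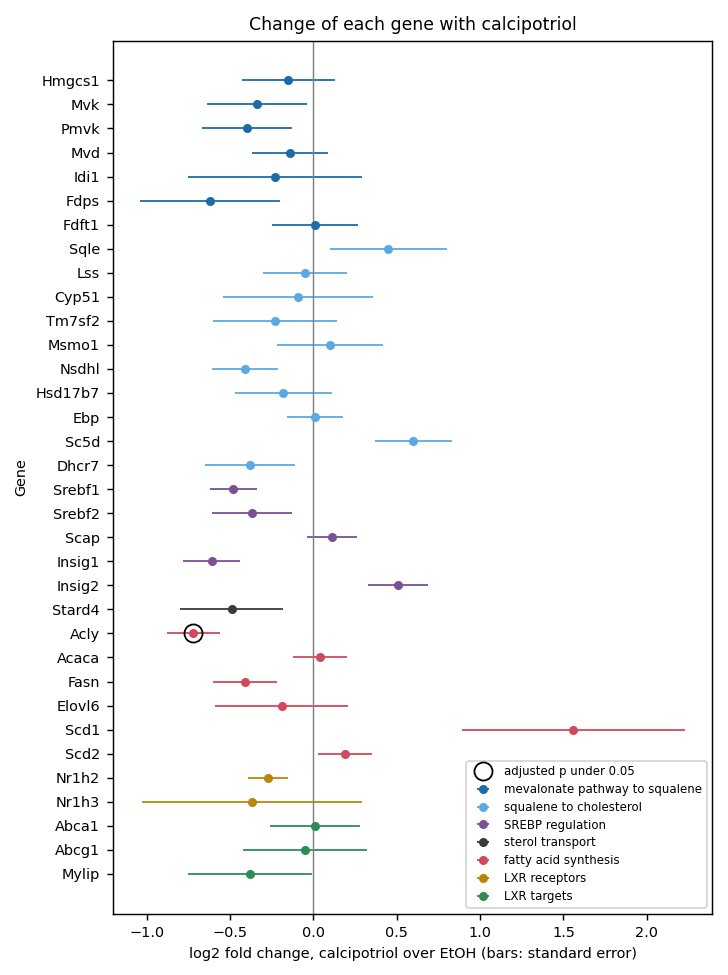
Log2 fold change of each of the 34 genes (horizontal axis, calcipotriol relative to EtOH, 4 tumors each) with its standard error, in the order of the pathway. Acly, at -0.72, is the only gene past an adjusted p of 0.05, and Scd1, at 1.56, has the highest value and the widest error, 0.67.

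The fatty acid arm held the gene that passed. Acly encodes ATP citrate lyase, which makes cytosolic acetyl-CoA from citrate for both arms. Its level was 162.1, 178.1, 243.3 and 220.4 CPM in EtOH tumors 1 to 4 and 147.5, 119.4, 113.4 and 107.9 CPM in calcipotriol tumors 1, 5, 6 and 7. Every calcipotriol tumor was below every EtOH tumor. The means were 201.0 ± 37.4 CPM (SD, n = 4) with EtOH and 122.0 ± 17.6 CPM with calcipotriol, a log2 fold change of -0.72 (SE 0.16, edgeR adjusted p = 0.0445). The call was lost in 7 of the 8 fits that left out 1 tumor, in which Acly stayed between -0.82 and -0.61. Those 7 fits called 121 to 282 genes over the whole table, against 396 with all 8 tumors. Acly lies at chr11:100476353-100528000 on the minus strand.

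Scd1, a stearoyl-CoA desaturase that puts the double bond into saturated fatty acids, had the largest ratio of highest to lowest EtOH tumor in the set, 9.64. It was at 5.79, 6.77, 55.8 and 48.7 CPM with EtOH and at 142.2, 83.1, 56.2 and 64.9 CPM with calcipotriol. All calcipotriol tumors were above all EtOH tumors, yet calcipotriol tumor 6 was only just above EtOH tumor 3. The log2 fold change was 1.56 (SE 0.67, edgeR adjusted p = 0.248), which did not pass. Its neighbor and paralog Scd2 was the most abundant member per kilobase of exon, at 75.9 ± 11.2 CPM per kb with EtOH and 86.7 ± 13.7 with calcipotriol (SD, n = 4), against 5.98 ± 5.46 and 17.7 ± 7.92 for Scd1. The ratio of Scd1 to Scd2 CPM was 0.0157 and 0.0188 in EtOH tumors 1 and 2, 0.115 and 0.109 in EtOH tumors 3 and 4, and 0.139 to 0.246 with calcipotriol. This ratio and that of Insig1 to Insig2 were computed after the values had been seen. The desaturases are similar in sequence, and every estimated count of both was a whole number. Whether reads were shared between them was not tested.

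Fasn, the synthase that builds palmitate, was at 114.5 to 189.9 CPM with EtOH and 97.6 to 147.0 CPM with calcipotriol (log2 fold change -0.41, edgeR adjusted p = 0.282). Acaca, which makes the malonyl-CoA that Fasn uses, differed by 0.04 on the log2 scale (SE 0.16), and Elovl6, which lengthens palmitate, by -0.19 (SE 0.40). The median log2 fold change over the 6 fatty acid genes was -0.08, with 3 positive and 3 negative. Their mean log2 CPM, relative to each gene's mean over the 8 tumors, was -0.61, -0.58, 0.52 and 0.25 in EtOH tumors 1 to 4. It was 0.38, 0.05, -0.09 and 0.08 with calcipotriol, so on this scale the average was higher with calcipotriol. Scd1, at 1.56, was the largest positive value, beside 0.19 for Scd2 and 0.04 for Acaca. The summed CPM of the 6 genes did not show this rise, at 711.5 to 1051.9 with EtOH and 730.4 to 1079.2 with calcipotriol. All 6 were lower in EtOH tumors 1 and 2 than in EtOH tumors 3 and 4.

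No gene of the mevalonate and cholesterol steps was called. All 4 calcipotriol tumors lay inside the EtOH range in 4 of the 7 mevalonate genes and 4 of the 10 genes from squalene to cholesterol, beside 21% of all genes, and between the EtOH pairs in 4 and 2 of them. Idi1, which isomerizes the isoprenoid building block, was at 9.29, 16.4, 65.4 and 68.0 CPM with EtOH and at 36.3, 37.0, 30.5 and 31.7 CPM with calcipotriol. Every calcipotriol tumor lay above EtOH tumors 1 and 2 and below EtOH tumors 3 and 4 (log2 fold change -0.23, SE 0.52, edgeR adjusted p = 0.854). Fdps, which makes farnesyl diphosphate, was at 26.1, 36.9, 108.5 and 113.7 CPM with EtOH and at 58.6, 43.9, 44.2 and 38.5 CPM with calcipotriol, the same order. Its log2 fold change of -0.62 (SE 0.42, edgeR adjusted p = 0.468) was the largest in size among the 7 mevalonate genes. Cyp51, the lanosterol demethylase, was at 21.6, 29.0, 110.2 and 105.0 CPM with EtOH and at 61.3, 65.3, 59.3 and 64.6 CPM with calcipotriol. For Cyp51 the group means, 66.5 ± 47.6 and 62.6 ± 2.82 CPM (SD, n = 4), were close while the spread was not (log2 fold change -0.09, SE 0.45). Pmvk, the phosphomevalonate kinase, had a log2 fold change of -0.40 (SE 0.27), and Mvk, the kinase before it, one of -0.34 (SE 0.30).

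**Figure D2:**
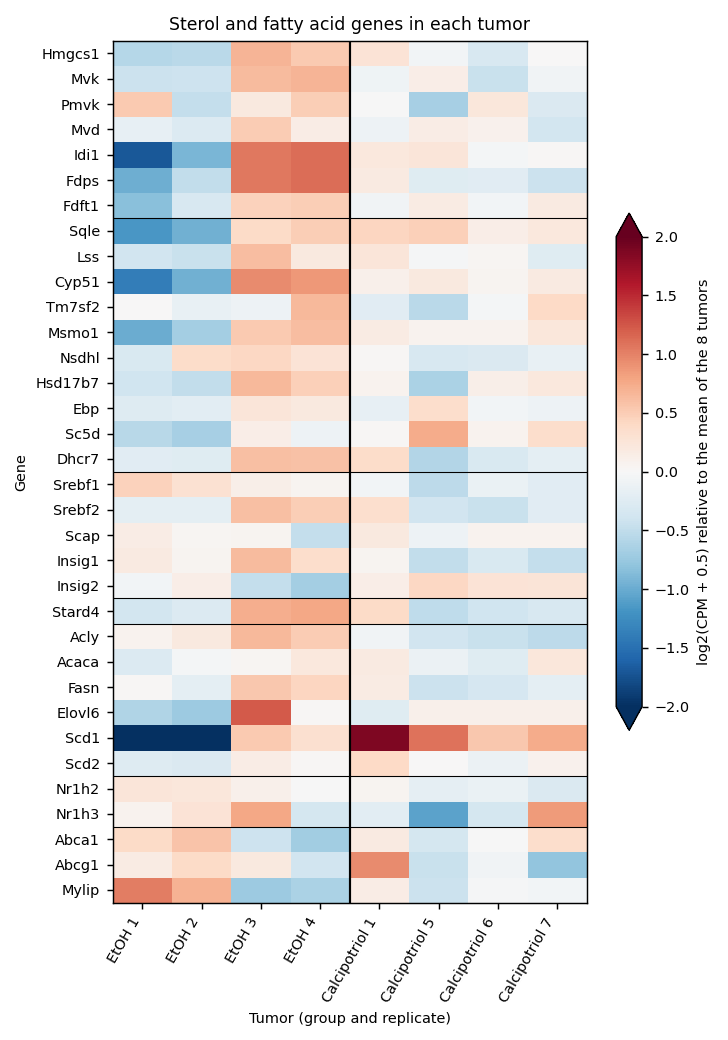
Values of log2(CPM + 0.5) of the 34 genes (rows, by role) in the 8 tumors (columns), relative to each gene's mean over the tumors, with the color scale ending at -2 and 2. Most synthesis genes are blue (low) in EtOH tumors 1 and 2, red (high) in EtOH tumors 3 and 4 and pale with calcipotriol, while Abca1 and Mylip run the other way among the EtOH tumors.

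The 10 genes from squalene to cholesterol had log2 fold changes from -0.41 to 0.60. Sc5d, the lathosterol desaturase, was the highest, with 16.5 to 29.1 CPM with EtOH and 26.9 to 44.7 CPM with calcipotriol (0.60, SE 0.23, edgeR adjusted p = 0.2). Sqle, the squalene epoxidase and a rate-controlling step, followed at 0.45 (SE 0.35), and Nsdhl, a sterol dehydrogenase, was the lowest at -0.41 (SE 0.20). Lss, Tm7sf2, Msmo1, Hsd17b7, Ebp and Dhcr7, the enzymes that close and reshape the sterol rings, lay between -0.38 and 0.10. Hmgcs1, which makes HMG-CoA, Mvd and Fdft1, which closes the mevalonate route at squalene, lay between -0.15 and 0.01. Stard4, a carrier of cholesterol inside the cell, was at -0.49 (SE 0.31).

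Some of these counts may hold reads of overlapping genes. On the same strand, where strand-specific counting would not separate the reads, Fdps shares 1124 exon bases with Gm43738 and Tm7sf2 532 with Vps51. The overlaps that follow are with genes on the opposite strand, and no source states that the counting used strand. Fdft1 shares 774 exon bases with Ctsb on the other strand, and none of its 8 estimated counts was whole. Scap shares 985 bases with 5830462I19Rik, Hmgcs1 557 with the antisense Gm48342, Lss 381 with 4930483K19Rik, Idi1 323 with Gm48574 and Cyp51 166 with Akap9. Every estimated count of Fdps, Lss and Cyp51 was whole, while 4 of Tm7sf2 and 3 each of Scap, Hmgcs1 and Idi1 were not. How reads of overlapping genes bear on the values was not tested.

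As a list, the 19 sterol SREBP targets (the 17 enzymes with Insig1 and Stard4) had a median log2 fold change of -0.18, with 14 negative and 5 positive, and none was called. In 16 of the 19, EtOH tumors 1 and 2 were both below EtOH tumors 3 and 4, against 29.3% of all genes. The median ratio of the highest to the lowest tumor was 2.22 with EtOH and 1.46 with calcipotriol, while for all genes it was 1.59 and 1.53. That ratio was larger with EtOH in 16 of the 19 genes, against 58.2% of all genes, the exceptions being Tm7sf2, Ebp and Dhcr7. Measured as the SD of log2 CPM, the spread was larger with EtOH in 18 of the 19, against 57.7% of all genes. These are descriptions, because the EtOH pattern was noticed in the same values.

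**Figure D3:**
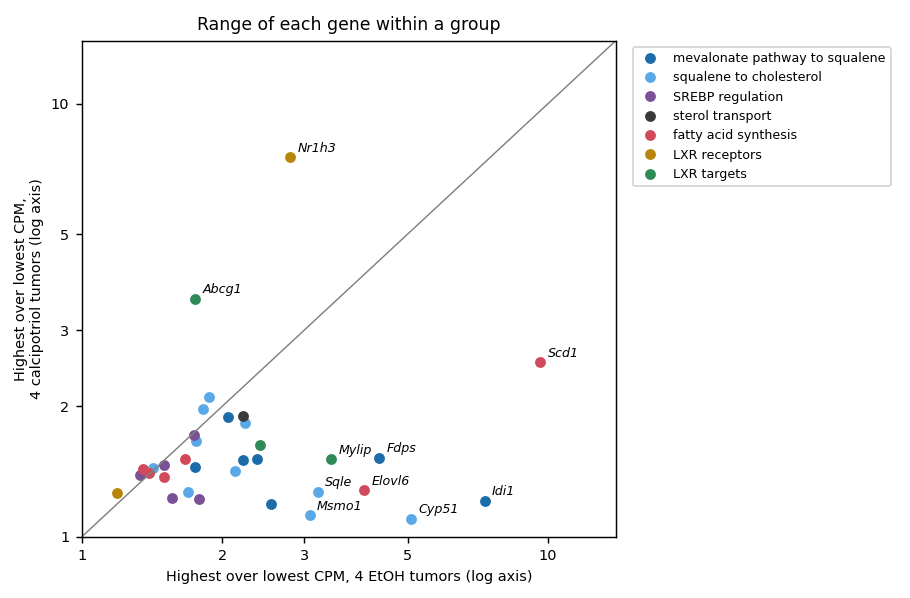
Ratio of the highest to the lowest CPM of each gene among the 4 EtOH tumors (horizontal, log axis) and among the 4 calcipotriol tumors (vertical, log axis), colored by role, with the line of equal ratios. Idi1 (7.32 and 1.21), Cyp51 (5.1 and 1.1) and Scd1 (9.64 and 2.53) lie far below the line, and Nr1h3 and Abcg1 lie above it.

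The 5 regulators of SREBP were not called. Srebf1, the factor best known for the fatty acid arm, was at 268.6, 240.0, 211.3 and 202.1 CPM with EtOH and at 186.3, 134.4, 176.2 and 165.9 CPM with calcipotriol. All calcipotriol tumors were below all EtOH tumors, and here EtOH tumors 1 and 2 were the higher ones. The log2 fold change of -0.48 (SE 0.14) did not pass edgeR's test (adjusted p = 0.112) and passed DESeq2's (adjusted p = 0.0486), under which 7% of all genes were called. Srebf2, the factor best known for the sterol arm, was at 127.9, 127.3, 221.7 and 206.8 CPM with EtOH and at 184.6, 112.5, 107.5 and 125.0 CPM with calcipotriol. The groups overlapped, with a log2 fold change of -0.37 (SE 0.24, edgeR adjusted p = 0.445). Scap was at 0.11 (SE 0.15).

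Insig1, itself an SREBP target, was at 46.2, 42.2, 63.5 and 52.2 CPM with EtOH and at 42.4, 29.0, 33.0 and 29.2 CPM with calcipotriol. Only calcipotriol tumor 1 reached the EtOH range, and the log2 fold change was -0.61 (SE 0.17, edgeR adjusted p = 0.0939). The gene passed in DESeq2 (adjusted p = 0.0377) and in edgeR without calcipotriol tumor 1 (-0.75, adjusted p = 0.0291), a fit in which 6.72% of all genes were called. Insig2, which is less tied to SREBP, was at 43.6, 50.1, 32.6 and 28.2 CPM with EtOH and at 49.8, 60.7, 54.8 and 54.7 CPM with calcipotriol (log2 fold change 0.51, SE 0.18, edgeR adjusted p = 0.169). EtOH tumor 2 lay above calcipotriol tumor 1 by a small margin. The ratio of Insig1 to Insig2 CPM was 0.843 to 1.95 with EtOH and 0.478 to 0.85 with calcipotriol, so the ranges overlapped by little.

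**Figure D4:**
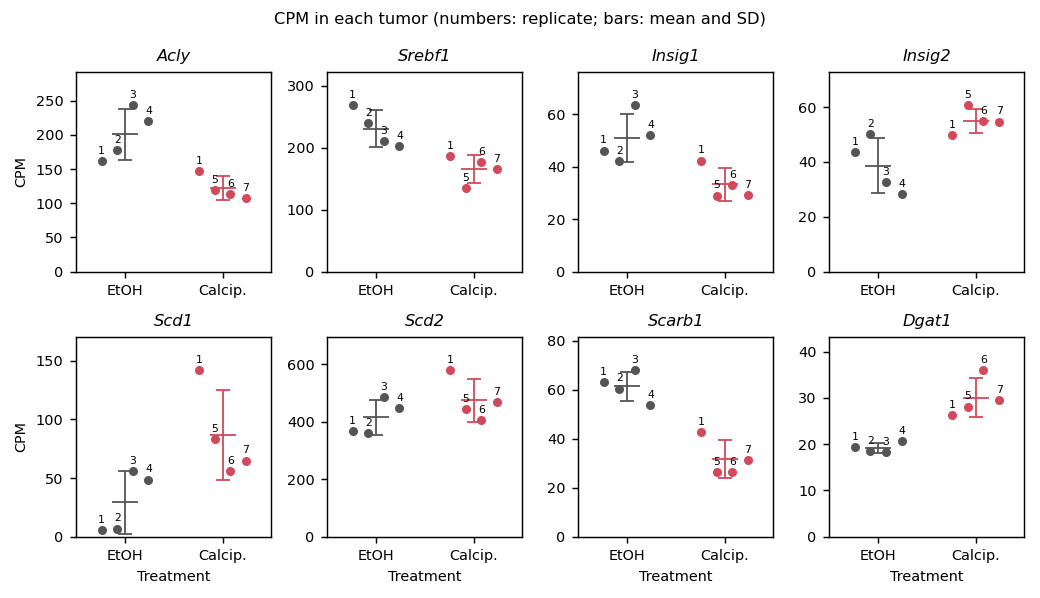
CPM of 8 genes in each tumor, with the replicate number beside each point and bars for the mean and SD of 4 tumors; each vertical axis starts at 0. Acly, Srebf1, Scd1, Scarb1 and Dgat1 show no overlap between the treatments, and the EtOH points of Scd1 form a low pair (5.79 and 6.77 CPM) and a higher pair (55.8 and 48.7 CPM).

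None of the LXR genes was called. Abca1, which loads cholesterol onto lipoprotein particles, was at 138.9, 158.8, 80.1 and 65.8 CPM with EtOH and at 120.5, 83.1, 105.8 and 135.7 CPM with calcipotriol, a log2 fold change of 0.01 (SE 0.27, edgeR adjusted p = 0.994). EtOH tumors 1 and 2 were above and EtOH tumors 3 and 4 below all calcipotriol tumors. Mylip, the ligase that removes the LDL receptor, had the same order, at 60.8, 48.1, 17.7 and 18.8 CPM with EtOH and at 32.9, 21.7, 28.9 and 28.4 CPM with calcipotriol (-0.38, SE 0.37, edgeR adjusted p = 0.642). Abcg1, another exporter, was at 12.0, 14.1, 12.3 and 8.07 CPM with EtOH and at 21.1, 7.72, 10.1 and 5.94 CPM with calcipotriol (-0.05, SE 0.37, edgeR adjusted p = 0.96). For Abcg1 calcipotriol tumor 1 stood highest, and the EtOH tumors did not split. Of the receptors, Nr1h2 (LXR beta) was at 83.6 to 99.8 CPM with EtOH and 69.1 to 87.3 CPM with calcipotriol (-0.27, SE 0.12), and Nr1h3 (LXR alpha) was at 0.926 to 2.59 and 0.365 to 2.76 CPM. Per kilobase of exon Nr1h2 was at 27.7 ± 2.27 and Nr1h3 at 0.659 ± 0.278 CPM per kb with EtOH (SD, n = 4).

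SREBP and LXR targets were set against each other in each tumor, as the mean log2(CPM + 0.5) of a list relative to each gene's mean over the 8 tumors. The sterol SREBP targets were at -0.53, -0.43, 0.55 and 0.52 in EtOH tumors 1 to 4 and at 0.10, -0.08, -0.09 and -0.05 in calcipotriol tumors 1, 5, 6 and 7. The LXR targets were at 0.52, 0.55, -0.31 and -0.57 with EtOH and at 0.43, -0.41, -0.04 and -0.17 with calcipotriol. The lists stood on opposite sides in every EtOH tumor, with LXR targets high in tumors 1 and 2 and sterol genes high in tumors 3 and 4. The LXR side of this rested on Abca1 and Mylip, and the 5 other LXR targets tested did not share it, since EtOH tumors 1 and 2 were both above tumors 3 and 4 in 0 of them, both below in 2 and mixed in 3. Those below, named after their values were seen, were Lpl, the lipoprotein lipase, at 0.973, 1.22, 12.5 and 14.8 CPM, and Smpdl3a, at 16.4, 18.6, 25.9 and 29.6 CPM in EtOH tumors 1 to 4. The difference, SREBP minus LXR, was -1.05, -0.98, 0.86 and 1.09 with EtOH and -0.33, 0.33, -0.05 and 0.12 with calcipotriol. Its mean was -0.02 ± 1.15 with EtOH and 0.02 ± 0.28 with calcipotriol (SD, n = 4), so the means differed by far less than the spread of the EtOH tumors. The median log2 fold changes of the lists were -0.18 for sterol SREBP targets and -0.05 for the 3 LXR targets.

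**Figure D5:**
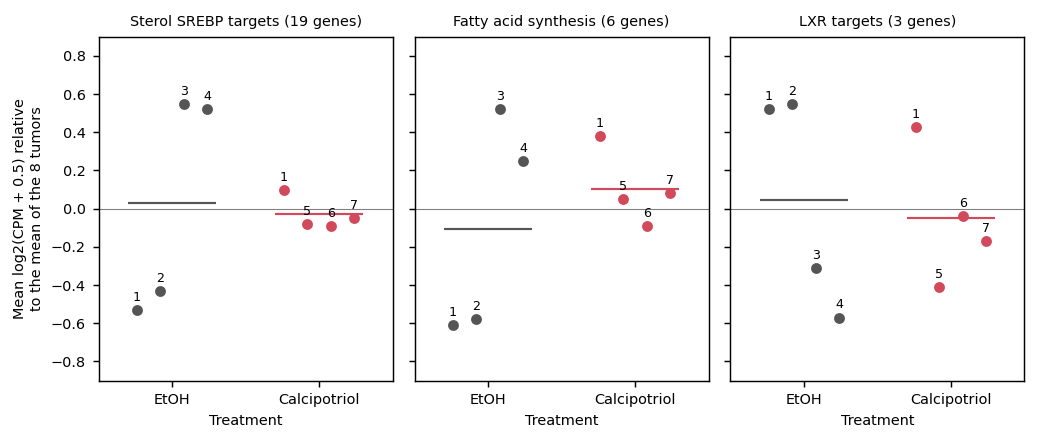
Level of the sterol SREBP targets, the fatty acid genes and the LXR targets in each tumor (vertical, mean log2 CPM relative to each gene's mean over 8 tumors), by treatment, with the replicate number beside each point and a line at the mean of each group. The EtOH points of the sterol list lie at -0.53, -0.43, 0.52 and 0.55 and those of the LXR list have tumors 1 and 2 at the top, with the calcipotriol points between -0.09 and 0.10 for the sterol list.

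The direction of both lists depended on which EtOH tumors were compared, and these refits were chosen after the values had been seen, on the same genes, so they are no independent evidence. With EtOH tumors 1 and 2 left out, log2 fold changes had a median of -0.54 for the sterol SREBP targets (18 of 19 negative), -0.38 for the fatty acid genes and 0.61 for the LXR targets (3 of 3 positive). In that fit edgeR called 5 members, Idi1, Fdps, Cyp51 and Acly lower and Insig2 higher, beside 1.56% of all genes. Without EtOH tumors 3 and 4, the medians were 0.42 (16 of 19 positive), 0.28 and -0.42 (3 of 3 negative). There 6 members were called, Idi1, Sqle, Cyp51, Msmo1 and Scd1 higher and Mylip lower, beside 5.55% of all genes. Idi1 and Cyp51 were thus called in opposite directions by the refits. Their opposite signs were fixed once the pairs were chosen, because every calcipotriol tumor lay between the EtOH pairs in both genes. The median of all genes was 0.05 in each.

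Several marker lists of other cells and states also differed between the EtOH tumors or the treatments. The summed level of 10 proliferation genes was 921.5 and 1060.5 CPM in EtOH tumors 1 and 2, 1471.6 and 1469.0 CPM in EtOH tumors 3 and 4 and 858.5 to 1197.4 CPM with calcipotriol, the same order among the EtOH tumors as the sterol genes. The 7 endothelial genes summed to 272.2 and 306.8 CPM in EtOH tumors 1 and 2, 132.5 and 125.3 CPM in EtOH tumors 3 and 4 and 48.9 to 100.9 CPM with calcipotriol, and 4 of the 7 were called lower. The 10 macrophage genes summed to 2261.0, 2286.4, 2784.9 and 2853.9 CPM in EtOH tumors 1 to 4 and 1170.6 to 2091.2 CPM with calcipotriol. EtOH tumors 1 and 2 were both below EtOH tumors 3 and 4 in 9 of the 10, against 29.3% of all genes. Of the 10, 3 were called, 2 lower and 1 higher. The 4 erythroid genes summed to 3895.7, 3872.4, 2357.5 and 2367.3 CPM in EtOH tumors 1 to 4 and 297.7 to 540.5 CPM with calcipotriol. In 3 of the 4, EtOH tumors 1 and 2 were both above EtOH tumors 3 and 4, and 3 were called lower. The 4 muscle genes were at 0.925 to 31.8 CPM with EtOH and 0.502 to 4.04 CPM with calcipotriol, highest in EtOH tumors 3 and 4. The 5 fibroblast genes split by the same EtOH tumors in opposite directions, with Col1a1 at 302.9, 271.5, 1155.2 and 1039.9 CPM and Lum also lower in tumors 1 and 2, and Pdgfra (186.9, 202.5, 86.3 and 63.8 CPM), Col3a1 and Dcn higher there, and none was called. The 4 T cell genes summed to 1.90, 2.14, 0.608 and 0.132 CPM in EtOH tumors 1 to 4, and none of the 3 tested was called. In calcipotriol tumors 1, 5, 6 and 7 they summed to 7.55, 2.28, 2.07 and 1.74 CPM. Calcipotriol tumor 1 also had the highest sum of its group for the macrophage, endothelial and erythroid genes.

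Fat cells and sebaceous glands make much lipid themselves, so their markers were read too. The 8 adipocyte genes summed to 28.7, 19.2, 44.9 and 45.3 CPM with EtOH and to 13.5, 36.2, 29.2 and 21.7 CPM with calcipotriol. Lipe, which other cells also express, made up 28.6 and 19.2 CPM of the sums in EtOH tumors 1 and 2. In 4 of the 5 adipocyte genes tested, EtOH tumors 1 and 2 were both below tumors 3 and 4, the same split as the sterol genes, with Cfd at 0.195, 0, 17.5 and 22.4 CPM. Adipoq and Plin1, which define adipocytes, were at 0 counts in EtOH tumors 1 and 2 and under 3 CPM in the rest, and none of the 5 was called. The 4 sebaceous genes summed to at most 0.685 CPM, and none had enough counts to be tested. The part of these cells in the sterol and fatty acid values was not tested.

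Among 53 other genes of sterol and lipid metabolism, 51 had enough counts to be tested, and edgeR called 1 higher and 1 lower. That is 3.92% of those tested, near the 2.74% of all genes (1.37% in each direction). Scarb1, the HDL receptor that takes up cholesterol esters, fell from 63.3, 60.5, 68.1 and 53.7 CPM with EtOH to 42.6, 26.2, 26.4 and 31.3 CPM with calcipotriol. The groups did not overlap, and the EtOH tumors did not split by pair (log2 fold change -0.96, SE 0.17, adjusted p = 0.0209). Dgat1, which joins the last fatty acid to triglycerides, rose from 19.3, 18.5, 18.3 and 20.6 CPM to 26.3, 28.1, 36.0 and 29.5 CPM, also without overlap (0.64, SE 0.14, edgeR adjusted p = 0.0445). Over 14 alternatives Scarb1 was called in 8 and Dgat1 in 5, with adjusted p from 0.000106 to 0.0769 and from 0.00514 to 0.15. By list, the calls were 0 of 14 for other sterol synthesis and SREBP machinery, 1 of 12 for uptake, trafficking and esterification, 1 of 20 for other fatty acid and lipid synthesis and 0 of 5 for other LXR targets tested. The 4 medians, -0.06, -0.12, -0.04 and 0.26, stood beside 0.02 for all genes.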

How the data were processed

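The authors deposited expected counts, that is, estimated reads for every gene in each of the 8 tumors, without scaling between libraries. The submitters' processing notes name STAR 2.5.3, RSEM 1.3.1, DESeq2 1.24.0 and GRCm38, and the annotation they used is not given in the sources used here. Since 4.2% to 6.22% of the entries per library had decimals, the expected counts were rounded. The test had been planned for whole counts, and this is the only change made for it.

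Symbols and positions came from GENCODE M21 (52081 of 55414 identifiers matched), with lengths as the union of exons. In R 4.3.3, edgeR 4.0.16 was fitted with its quasi-likelihood model (glmQLFit, glmQLFTest), after filterByExpr on the groups and TMM scaling, to all 8 tumors with no covariate, and p-values were adjusted by Benjamini-Hochberg over 14458 genes. A gene was called at an adjusted p under 0.05. SE is the log2 fold change divided by the root of F. CPM used TMM library sizes, and list levels used log2(CPM + 0.5). The biological coefficient of variation was 0.347. Depth limits low genes, and PCR copies mean that counted reads are not separate molecules.

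Alternatives were DESeq2 size factors, no filter, at least 10 counts in every tumor, DESeq2 1.42.0, limma-voom (limma 3.58.1, the package of the study), TMM without erythroid and muscle genes, a minimum log2 fold change of 1 and each tumor left out. The scripts were tested on simulated data. Every member is accounted for, with tumor values for members called or without overlap and for the regulators and LXR targets, and up to 3 examples per list by size of change. Idi1, Cyp51, Acaca, Elovl6, Fasn, Scd2 and the printed promoters were chosen after values were seen. Of the other pathway genes, those called are named. The members and lists were chosen with earlier results of these data known.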

Additional observations from a re-analysis of the deposited data

Results flagged for a closer look

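Elovl6 in calcipotriol tumor 1 was at 10.2 CPM, apart from the other calcipotriol tumors at 13.0 to 13.1 CPM. The gap to the nearest tumor, divided by the range of the group, was above Dixon's critical value for 4 samples. It was the only value flagged in 68 groups of tumors examined, where chance at 1 in 20 gives 3.4. That count depends on the scale. In CPM, Tm7sf2 in EtOH tumor 4 also stood apart (5.82, the others 3.12 to 3.55). So did Stard4 in calcipotriol tumor 1 (25.8, the others 13.6 to 15.6).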

How the results depend on the processing

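The count of 1 member called (Acly) was also 1 with DESeq2 size factors, no filter, at least 10 counts in every tumor, limma-voom and TMM without erythroid and muscle genes. It was 3 with DESeq2 (Srebf1, Insig1 and Acly) and 0 with the fold change minimum. Leaving out 1 tumor gave 0 to 2 members called, 2 only without calcipotriol tumor 1 (Insig1 and Acly). The median of the sterol SREBP targets ranged from -0.34 to 0.05 with 1 tumor left out, that of the fatty acid genes from -0.21 to 0.16 and that of the LXR targets from -0.46 to 0.10, and limma-voom gave 0.01 for the fatty acid genes. In the refits chosen after seeing the data, without EtOH tumors 1 and 2 or 3 and 4, 5 and 6 members were called and the medians were -0.54 and 0.42, -0.38 and 0.28, and 0.61 and -0.42. Single genes changed sign when 1 tumor was left out, with log2 fold changes of -0.32 to 0.09 for Hmgcs1, -0.24 to 0.05 for Mvd, -0.56 to 0.15 for Idi1, -0.19 to 0.20 for Fdft1, -0.19 to 0.20 for Lss, -0.38 to 0.27 for Cyp51, -0.45 to 0.02 for Tm7sf2, -0.13 to 0.36 for Msmo1, -0.34 to 0.04 for Hsd17b7, -0.12 to 0.10 for Ebp, -0.02 to 0.18 for Scap, -0.04 to 0.12 for Acaca, -0.41 to 0.44 for Elovl6, -0.18 to 0.23 for Abca1 and -0.55 to 0.17 for Abcg1, and limma-voom gave 0.19 for Idi1 and 0.24 for Cyp51. The cause was not tested. Of the values of the members, Scarb1 and Dgat1 under the alternatives, 444 kept direction and side of the threshold, 34 changed direction, 22 lost the call and 3 gained it. No paired analysis was possible because no label pairs an EtOH tumor with a calcipotriol tumor. The SE on the log2 scale was 0.52 for Idi1 and 0.45 for Cyp51, at 191 or more counts in every tumor.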

Other observations

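Abcg5 and Abcg8, LXR targets that form a sterol exporter, had too few counts to be tested in all. Abcg8 had 3, 0, 5 and 7 counts in EtOH tumors 1 to 4 and 0, 48, 38 and 58 counts in calcipotriol tumors 1, 5, 6 and 7, so calcipotriol tumor 1 was at 0 and the other calcipotriol tumors were above every EtOH tumor. Abcg5 had 0 counts in every EtOH tumor and 1, 7, 4 and 4 counts with calcipotriol. These genes were singled out after their values were seen.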
